A study of Mus musculus with 12 samples.

Results

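Dll1, Dll3 and Dll4, the Delta-like ligands of the Notch pathway, were followed through mouse kidney development on a membrane array of Notch-related genes. They were taken as the spots whose gene symbol was Dll1, Dll3 or Dll4, which gave 3 of the 118 genes on the array, with 1 spot each. The 12 arrays held RNA of embryonic kidney at gestational days 12, 13, 14, 16 and 18 (E12 to E18), with 3 arrays at E12, 3 at E13 and 2 each at E14, E16 and E18. No treatment or genetic change was labelled at any stage, and the mouse strain and the number of embryos behind each RNA were not given in the sources used here. Arrays within a stage are labelled as technical replicates, so the p-values below are set against the spread between arrays and not between embryos. Those of the trend over gestational day are set against the scatter of the 5 stage means around a straight line.

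Notch signalling passes between touching cells. A Delta-like or Jagged ligand on 1 cell binds a Notch receptor on its neighbour, the receptor is cut, and its inner part enters the nucleus and turns on targets such as Hes and Hey genes together with Rbpj. Dll1 and Dll4 activate receptors on neighbouring cells. Dll3 differs from them in that it does not activate Notch from a neighbouring cell and is known for dampening the pathway inside the cell that makes it, with its best-studied role in somite formation. In the mouse kidney, Dll1 is known from the early nephron, where Notch helps to set up the proximal segment, and Dll4 is best known from the endothelium of sprouting vessels.

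The array accessions of all 3 ligands matched RefSeq genes of the same symbol, Dll1 on chromosome 17, Dll3 on chromosome 7 and Dll4 on chromosome 2. In that gene table a long non-coding RNA gene, Gm14207, overlaps Dll4, and no gene overlaps Dll1 or Dll3. The array files hold no probe sequences. The 150 bases before each annotated start (RefSeq, GRCm38.p6, 5′ to 3′ on the gene's strand) are shown because ligand genes can themselves be Notch targets, so that the core bases bound by Rbpj, TGGGAA, could be looked for. The capitals mark TATAA, the core of a TATA box. RefSeq lists 2 starts for Dll1.
Dll1 (inner start), chr17:15375824-15375973, minus strand: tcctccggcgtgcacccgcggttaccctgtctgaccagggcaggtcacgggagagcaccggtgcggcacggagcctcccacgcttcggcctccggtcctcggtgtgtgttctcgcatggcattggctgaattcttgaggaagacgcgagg
Dll1 (outer start), chr17:15376933-15377082, minus strand: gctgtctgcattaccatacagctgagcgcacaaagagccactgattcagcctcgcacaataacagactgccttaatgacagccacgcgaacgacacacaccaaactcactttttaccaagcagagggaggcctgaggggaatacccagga
Dll3, chr7:28301786-28301935, minus strand: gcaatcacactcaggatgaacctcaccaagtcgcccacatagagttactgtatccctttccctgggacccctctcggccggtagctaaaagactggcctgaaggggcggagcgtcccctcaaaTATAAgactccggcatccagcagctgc
Dll4, chr2:119325634-119325783, plus strand: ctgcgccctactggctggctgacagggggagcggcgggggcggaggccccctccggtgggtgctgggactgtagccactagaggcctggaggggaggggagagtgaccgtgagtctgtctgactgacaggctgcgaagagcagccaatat
TGGGAA was found on neither strand in the 250 bases before any of the 4 starts, against 21.6% of all 32851 promoter windows of that length. TATAA was found once, 27 bases before the start of Dll3, and occurs on either strand in 22.8% of all windows. GC content over the 250 bases was 64% and 56% for the starts of Dll1, 52% for Dll3 and 65.6% for Dll4, beside a median of 52.4% over all windows. These are matches of letters only.

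All 3 ligands were detected at every stage. The background of an array was set 2 SD above the mean of its 6 negative-control spots, and the ligand spots lay above it on 12 of 12 arrays each. Most genes did so, with 94 to 112 of all 118 above background on each array. Dll3 read 2.74 to 20.1 times the mean negative control of its array. Dll1 read 1.62 to 4.65 times and Dll4 1.43 to 3.72 times that mean, so these 2 stood close to background on several arrays. Spots of different genes carry different probes, so these multiples say how well each was measured and do not rank the ligands by RNA level. Mean negative controls ran from 772.5 to 3494.83 per array, and the first replicates of E13, E16 and E18 had the 3 highest (2984.83, 2324.33 and 3494.83).

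**Figure D1:**
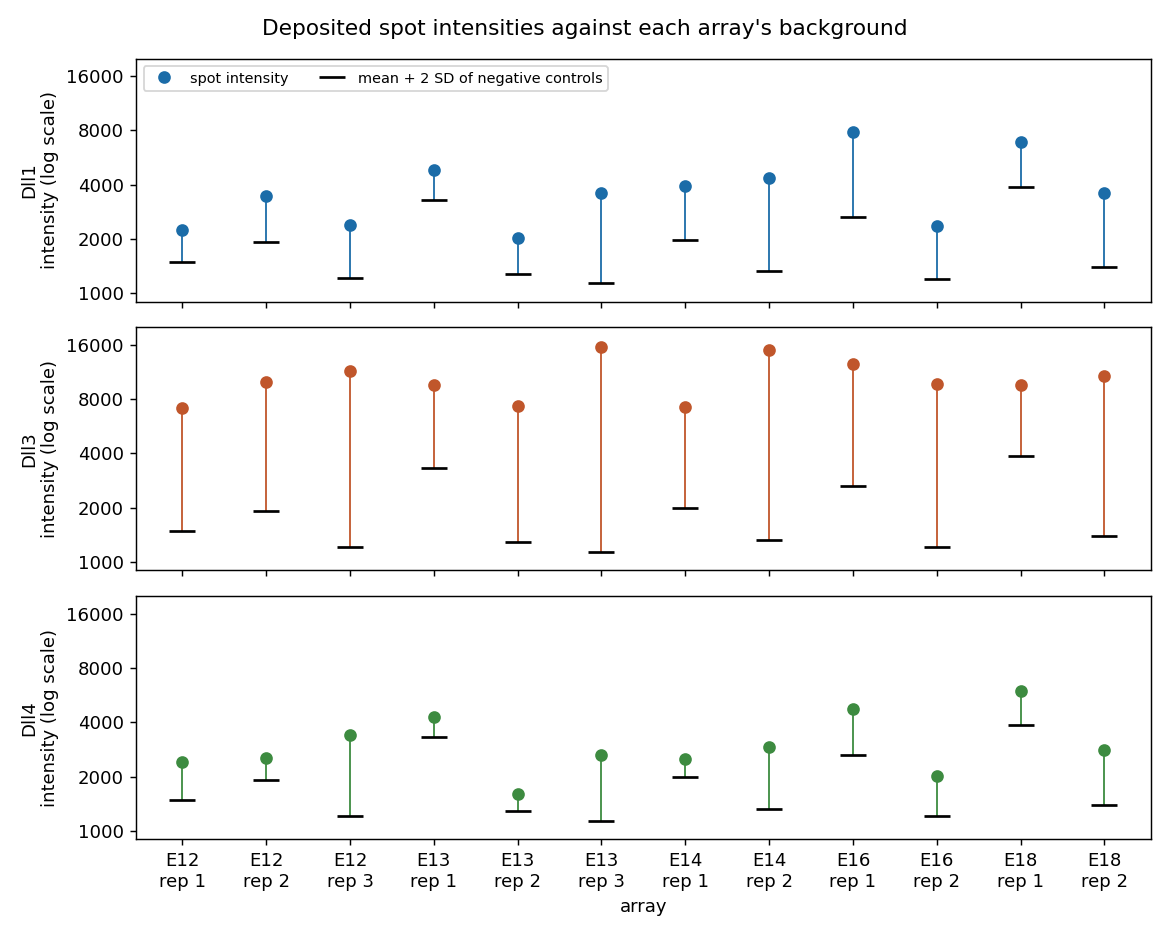
Deposited intensity of the Dll1, Dll3 and Dll4 spots (points, log axis) on each of the 12 arrays, with a black bar 2 SD above the mean of that array's negative controls. Every point lies above its bar, and the gap is narrowest for Dll4, which reached 1.43 times the mean negative control at its lowest.

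Dll1 gave deposited intensities of 2255, 3474 and 2401 on the E12 arrays, 4845, 2022 and 3589 on those of E13, 3948 and 4364 on those of E14, 7793 and 2357 on those of E16, and 6915 and 3604 on the E18 arrays. The highest and one of the lowest readings thus came from the 2 arrays of a single stage, E16. After background correction and quantile normalization (each array given the same distribution of values), the log2 intensity of Dll1 was 11.17 ± 0.65 (SD, n = 3) at E12, 11.32 ± 0.65 (SD, n = 3) at E13, 11.57 ± 0.18 (SD, n = 2) at E14, 11.88 ± 1.45 (SD, n = 2) at E16 and 11.57 ± 0.25 (SD, n = 2) at E18. In order of these means E16 came first, then E18, E14, E13 and E12. Each stage overlapped its neighbours in that order, and the means spanned 0.71 log2 units, or 1.64-fold. The E16 arrays alone spanned 2.05 log2 units, or 4.13-fold.

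Dll3 gave intensities of 7101, 9897 and 11424 on the E12 arrays, 9560, 7331 and 15508 on those of E13, 7240 and 14978 on those of E14, 12511 and 9688 on those of E16, and 9570 and 10760 on the E18 arrays. Its normalized log2 intensity was 13.26 ± 0.39 (SD, n = 3) at E12, 12.98 ± 0.52 (SD, n = 3) at E13, 13.16 ± 0.37 (SD, n = 2) at E14, 13.35 ± 0.76 (SD, n = 2) at E16 and 12.58 ± 0.33 (SD, n = 2) at E18. E18 had the lowest mean of the 5 stages. Its higher array, at 12.82, had the same normalized value as the lowest array of E12 and the lower array of E16. On this normalized scale no E18 array lay above any array of those stages. Before normalization the second E18 array, at 10760, read above 7101 and 9897 at E12 and 9688 at E16. It read below 11424 at E12 and 12511 at E16. E13 and E18 overlapped, as did every other pair of neighbours in the order E16, E12, E14, E13, E18.

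Dll4 gave intensities of 2421, 2541 and 3411 on the E12 arrays, 4280, 1605 and 2644 on those of E13, 2496 and 2934 on those of E14, 4730 and 2021 on those of E16, and 5927 and 2795 on the E18 arrays. Its normalized log2 intensity was 11.13 ± 0.63 (SD, n = 3) at E12, 10.82 ± 0.52 (SD, n = 3) at E13, 10.95 ± 0.70 (SD, n = 2) at E14, 11.24 ± 0.72 (SD, n = 2) at E16 and 11.25 ± 0.21 (SD, n = 2) at E18. The 5 means lay within 0.43 log2 units (1.35-fold), the narrowest span of the 3 ligands, and all neighbours in the order E18, E16, E12, E14, E13 overlapped. The array that read highest before correction, the first of E18, had the highest negative controls of the series.

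**Figure D2:**
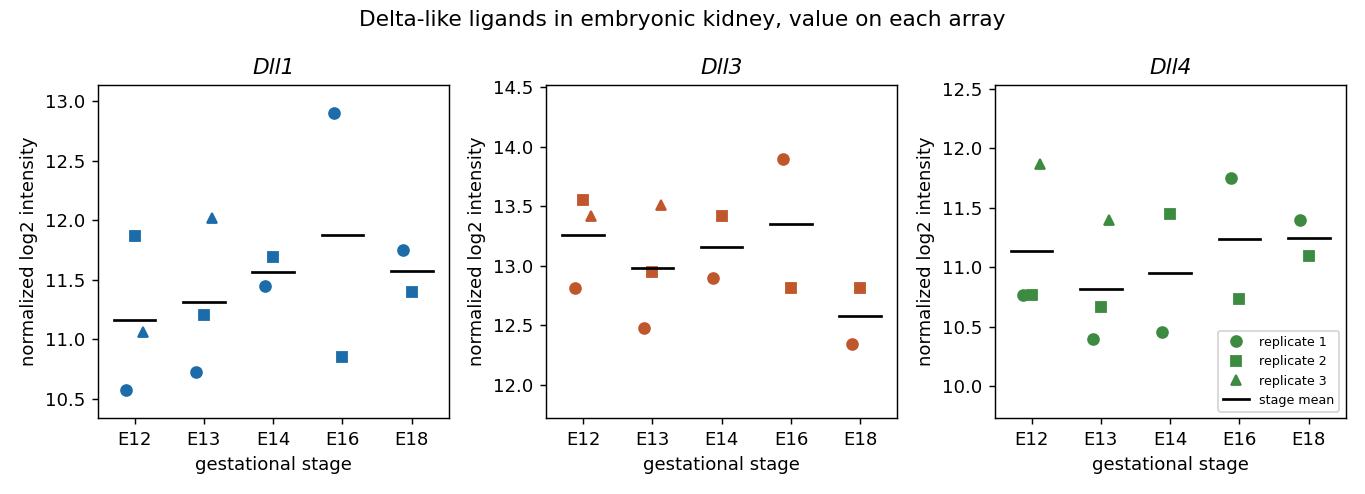
Normalized log2 intensity of Dll1, Dll3 and Dll4 by gestational stage, with 1 symbol per array and the stage mean as a black line; each panel has its own vertical range of equal span. The Dll1 arrays of E12, E13 and E16 span 1.29, 1.29 and 2.05 units, more than the 0.71 between the stage means, while those of E14 and E18 span 0.25 and 0.35.

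In the deposited table of the series, which gives each spot relative to Ppia, Dll1 averaged 0.0630, 0.0636, 0.0896, 0.119 and 0.0991 in the order of the 5 stages. Dll3 averaged 0.245, 0.230, 0.257, 0.270 and 0.216 in that order, and Dll4 averaged 0.0640, 0.0487, 0.0539, 0.0702 and 0.0761. E16 was the highest mean for Dll1 and Dll3 on this scale too, and E18 the highest for Dll4. The E16 mean of Dll1 rested on the first E16 array, at 0.188, since the other was at 0.0504, below the E12 mean. The E14 arrays, at 0.0804 and 0.0989, and the E18 arrays, at 0.120 and 0.0783, all lay above the highest E12 array, at 0.0763. For Dll3 on this scale, the E18 arrays, at 0.196 and 0.236, lay above the lowest E12 array, at 0.193. The second E18 array also lay above the lower E16 array of Dll3, at 0.213.

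The stages were then compared to ask whether the ligands changed as the kidney grew. No Delta-like ligand passed the test in any of 7 comparisons (limma, Benjamini-Hochberg adjusted p under 0.05 over the 106 genes tested), and none had an unadjusted p under 0.05. Nearest to the threshold before adjustment were the trend of Dll1 and E18 minus E12 for Dll3. RNA of whole kidney cannot tell fewer cells of a type from less RNA per cell.

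At E18 against E12, 0 of 3 ligands passed, where 1.89% of all genes tested did. Dll3 averaged 12.58 at E18 and 13.26 at E12, a difference of -0.68 (SE 0.41, limma adjusted p = 0.517), or 0.624-fold with a 95% interval of 0.326 to 1.19. Over 24 alternative settings this difference kept its sign but ran from -0.93 to -0.047. Before correction and normalization the mean intensity of Dll3 was 10165 at E18 and 9474 at E12. Dll1 differed by 0.40 (SE 0.62, limma adjusted p = 0.855), an interval of 0.501-fold to 3.50-fold. Dll4 differed by 0.11 (SE 0.49, limma adjusted p = 0.969), an interval of 0.501-fold to 2.33-fold. These intervals are wide enough to hold no change and, for Dll1 and Dll4, more than a doubling.

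At E16 against E12, 0 of 3 ligands passed, beside 1.89% of all genes. Dll1 averaged 11.88 at E16 and 11.17 at E12, a difference of 0.71 (SE 0.62, limma adjusted p = 0.679), with an interval of 0.620-fold to 4.33-fold. Dll3 and Dll4 differed by 0.09 (SE 0.41) and 0.10 (SE 0.49). With 2 arrays at E16, all 3 differences depended on single arrays. Without the first E16 array they were -0.32 for Dll1, -0.45 for Dll3 and -0.42 for Dll4, with the lone E16 array assumed to vary like the other arrays. Leaving out each array in turn, they reached as high as 1.70 for Dll1, 0.62 for Dll3 and 0.63 for Dll4. The first E16 array had negative controls of 2324.33 on average, and the part of its background in these values was not tested.

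At E14 against E12, 0 of 3 passed, beside 0.943% of all genes. The differences were 0.40 for Dll1 (SE 0.62), -0.10 for Dll3 (SE 0.41) and -0.18 for Dll4 (SE 0.49). At E13 against E12, 0 of 3 passed and 0% of all genes did, with 5 of the 106 genes at an unadjusted p under 0.05. Dll1 differed by 0.15 (SE 0.55), Dll3 by -0.28 (SE 0.37) and Dll4 by -0.32 (SE 0.44). Each ligand therefore stood within 1 SE of its E12 level at both E13 and E14.

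Pooling E16 and E18 as late and E12 and E13 as early set 4 arrays against 6, and 0 of 3 ligands passed, beside 3.77% of all genes. Dll1 averaged 11.72 in the late stages and 11.24 in the early stages, a difference of 0.48 (SE 0.44, limma adjusted p = 0.730), or 1.40-fold with a 95% interval of 0.703 to 2.78. Dll4 averaged 11.24 late and 10.98 early, a difference of 0.27 (SE 0.35, limma adjusted p = 0.842), or 1.20-fold with an interval of 0.698 to 2.07. Dll3 averaged 12.97 late and 13.12 early, a difference of -0.15 (SE 0.29, limma adjusted p = 0.892), or 0.899-fold with an interval of 0.569 to 1.42. A doubling of Dll1 or of Dll4 in the late stages lay inside its interval, and a doubling of Dll3 lay outside. Without the first array of E16 the difference of Dll1 was -0.03 and that of Dll4 was 0.0072. Leaving out each array in turn, they reached as high as 0.98 for Dll1 and 0.53 for Dll4.

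Over gestational day, with each stage mean as 1 value, the slope was 0.08 log2 units per day for Dll1 (SE 0.04, limma adjusted p = 0.390), -0.07 for Dll3 (SE 0.05, limma adjusted p = 0.547) and 0.05 for Dll4 (SE 0.03, limma adjusted p = 0.547), and 1.89% of all genes passed. Of the 5 stages, E18 gave Dll3 its downward slope, which was 0.04 without that stage. In the test over all 5 stages at once, 0 of 3 passed beside 0.943% of all genes, with F of 0.394 for Dll1, 0.978 for Dll3 and 0.307 for Dll4 (limma adjusted p = 0.986, 0.925 and 0.986). An F under 1 means that stage means spread less than the arrays within stages would give by themselves.

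**Figure D3:**
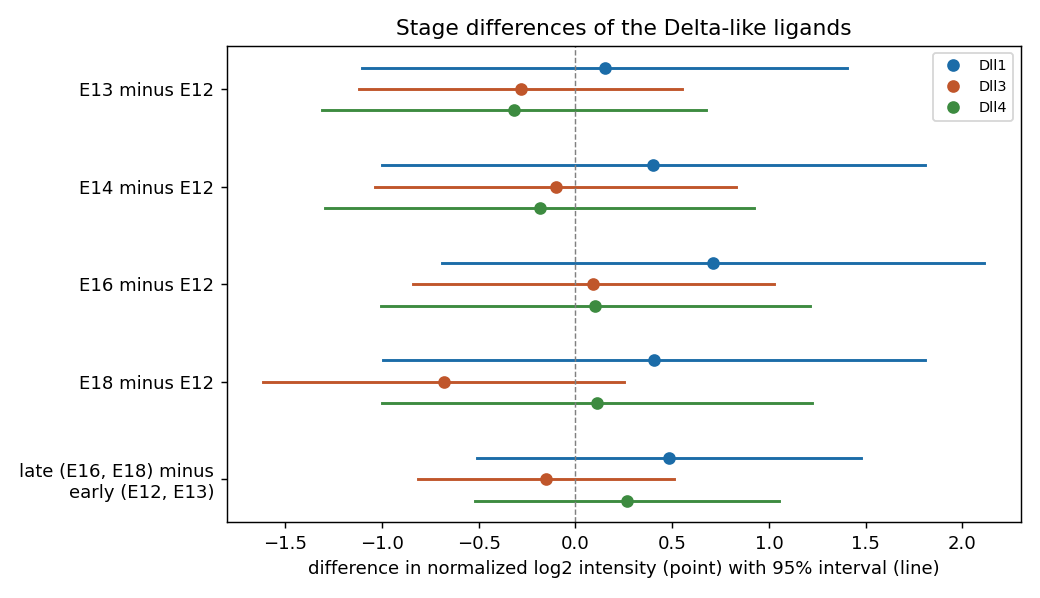
Difference in normalized log2 intensity of Dll1, Dll3 and Dll4 in 5 stage comparisons (points) with 95% intervals (lines). Every interval spans 0, from -1.62 to 0.25 for Dll3 at E18 minus E12 and from -0.69 to 2.11 for Dll1 at E16 minus E12.

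The spread between arrays of a stage set these limits. The residual SD, pooled over stages, was 0.75 log2 units for Dll1, 0.59 for Dll4 and 0.49 for Dll3, against a median of 0.36 over the genes tested. Only 9 of the 106 genes had a larger residual SD than Dll1, 19 had a larger one than Dll4 and 31 than Dll3.

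That spread was shared among the 3 ligands. The deviations of each array from its stage mean correlated at r = 0.87 between Dll1 and Dll3, 0.72 between Dll3 and Dll4 and 0.58 between Dll1 and Dll4 (Pearson, 12 arrays, as a description). Over all 5565 pairs of tested genes the median r was -0.02, and 0.809% of pairs lay above that of Dll1 and Dll3. All 3 ligands were highest of their stage on the first E16 array and on the third E13 array, and all 3 were lowest on the first arrays of E13 and E14. They parted at E12, where Dll1 and Dll3 were highest on the second array and Dll4 on the third. At E18 Dll1 and Dll4 were higher on the first array and Dll3 on the second. The 5 stage means did not move together as the deviations did, with r of 0.10 between Dll1 and Dll3, -0.06 between Dll3 and Dll4 and 0.45 between Dll1 and Dll4.

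The ligands also sat side by side on the membrane, as spots 17, 18 and 19. Spots with consecutive numbers had a median r of 0.49 between their deviations (92 pairs), spots 4 apart 0.30 (86 pairs), spots 8 apart 0.52 (84 pairs) and spots 12 apart 0.14 (82 pairs). The rise at 8 is what a grid of 8 columns would give, although the layout is not given in the sources used here. For a correction by spot position, each gene was set against the mean deviation of the genes around it on such a grid. The ligands were not used for each other. Deviations here were taken from each gene's mean over all arrays and not from its stage mean. Stage changes of the surrounding genes were therefore taken off as well. The residual SD fell to 0.59 for Dll1, 0.29 for Dll3 and 0.37 for Dll4, while its median over the genes tested went from 0.36 to 0.32. Under this setting, chosen after seeing the data, no ligand passed either, while 7 of the 106 genes passed at E18 minus E12 and 8 each in late minus early and in the trend. Dll3 at E18 minus E12 was then -0.79 (SE 0.26, limma adjusted p = 0.124, unadjusted 0.0129), its trend was -0.11 per day (SE 0.04, limma adjusted p = 0.223, unadjusted 0.0495), and its late minus early difference was -0.35 (SE 0.19, limma adjusted p = 0.311). Dll1 and Dll4 were at 0.20 (SE 0.33) and 0.21 (SE 0.23) in late minus early.

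**Figure D4:**
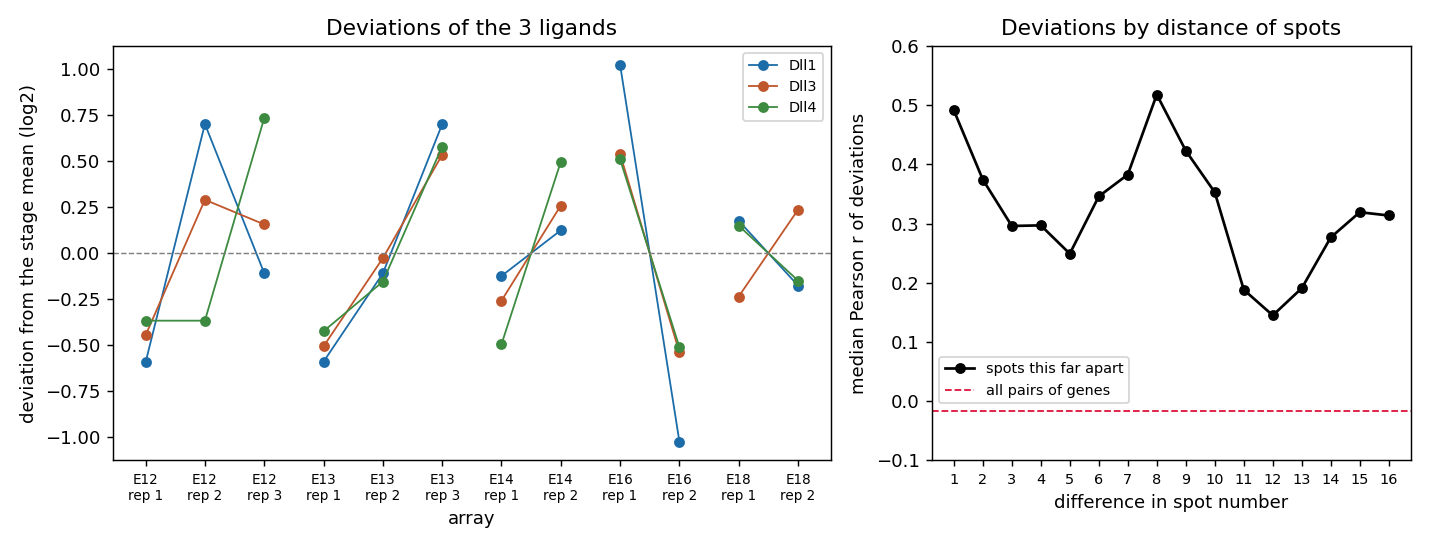
Left, deviation of Dll1, Dll3 and Dll4 from the stage mean on each array in normalized log2 units, with lines joining arrays of a stage. Right, median Pearson r of such deviations between genes against the difference in their spot numbers, beside the median of -0.02 over all pairs (dashed); it is highest at 1 and 8 spots apart, at 0.49 and 0.52.

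By Pearson r over the 12 arrays, the genes most like Dll1 were Fzd6 (r = 0.81), a Frizzled receptor of the Wnt pathway, Fosl1 (r = 0.69), an AP-1 transcription factor, and Dll3 (r = 0.66). For Dll3 they were Fosl1 (r = 0.74), the sheddase Adam17 (r = 0.73) and Ccne1 (r = 0.69), a cyclin of the G1/S step. For Dll4 they were Fzd1 (r = 0.75), another Frizzled receptor, Adam17 (r = 0.71) and Fosl1 (r = 0.71). Their spot numbers were 3 for Adam17, 10 for Ccne1, 27 for Fosl1, 28 for Fzd1 and 34 for Fzd6. Over the 5 stage means, r for Dll1 was 0.65 with Fzd6, 0.84 with Fosl1 and 0.10 with Dll3. For Dll3 it was 0.36 with Fosl1, 0.87 with Adam17 and 0.78 with Ccne1, and for Dll4 it was 0.46 with Fzd1, -0.41 with Adam17 and 0.75 with Fosl1. Some pairs were thus alike over stages and others were not. The values share stage and background within an array, so they describe likeness on these membranes.

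The rest of the pathway gave the setting for the ligands. Of 28 other Notch pathway genes tested, 0 passed in the late minus early comparison, and their median difference was 0.10, beside 0.04 over all 106 genes tested and individual values of 0.48, 0.27 and -0.15 for Dll1, Dll4 and Dll3. At E18 minus E12 and at E16 minus E12, 1 of the 28 rose and 0 fell. That gene was the other main ligand of the nephron, Jag1, with a difference of 0.85 (SE 0.17, limma adjusted p = 0.0476) at E18 and 0.95 (SE 0.17, limma adjusted p = 0.0212) at E16. Jag1 was higher than at E12 in all 24 alternatives run for each stage, and passed in 7 of them at E18 and in 10 of those for E16. It did not pass with arrays scaled to equal medians or to housekeeping genes, without normalization, or with the deposited ratios. Under these its limma adjusted p ran from 0.322 to 0.594 at E18 and from 0.360 to 0.604 at E16. When the replicate number entered as a block, its adjusted p was 0.109 at E18 and 0.0828 at E16 (limma). Jag1 already stood above its E12 level at E13, by 0.81 (SE 0.15, limma adjusted p = 0.0590), and at E14, by 0.41 (SE 0.17, limma adjusted p = 0.795). Its difference from E12 was thus not confined to the late stages. Both E16 arrays had the same normalized value for Jag1, 14.43.

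Among receptors, Notch1 differed by 0.43 (SE 0.20, limma adjusted p = 0.303) and Notch2 by 0.17 (SE 0.27) between late and early stages, and 0 of 4 passed. Of the 4 fringe and O-fucose enzymes, which alter how receptors respond to Delta-like and Jagged ligands, 0 passed, with Mfng at 0.48 (SE 0.30) and Rfng at 0.45 (SE 0.42). Neurl, a mouse relative of the fly ubiquitin ligase that helps take up Delta, was at -0.07 (SE 0.15). Of the 7 sheddases and gamma-secretase subunits, which cut the receptor after ligand binding, 0 passed, and the catalytic subunit Psen2 was at 0.38 (SE 0.29). Of the 4 nuclear factors tested 0 passed, with the co-activator Ep300 at 0.43 (SE 0.39) and Rbpj at 0.11 (SE 0.17). Of the 6 Hes and Hey genes 0 passed, and the 2 of smallest p were Hes6 at -0.17 (SE 0.08, limma adjusted p = 0.303) and Hes1, a repressor induced by Notch, at 0.13 (SE 0.08).

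**Figure D5:**
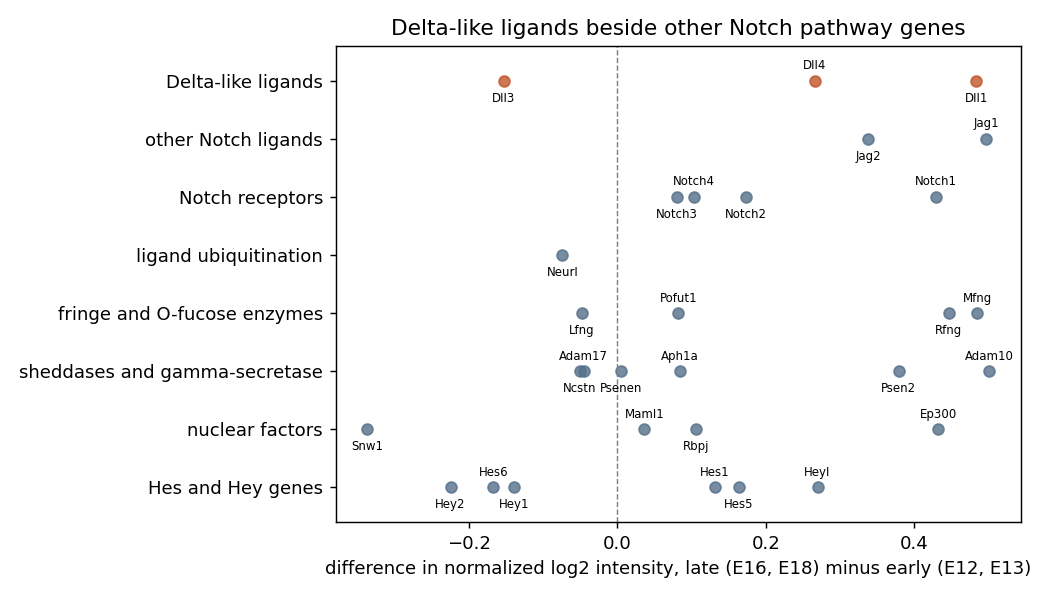
Late (E16, E18) minus early (E12, E13) difference in normalized log2 intensity for the 3 Delta-like ligands (orange) and for genes of 7 lists of the Notch pathway (blue), 1 point per tested gene, with 1 gene not shown. The ligands lie at 0.48, 0.27 and -0.15, within the range of the other pathway genes.

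Some genes outside these lists also passed. In the late minus early comparison Fos, an immediate early transcription factor, rose by 1.07 (SE 0.23, limma adjusted p = 0.0382). Krt1 and Lor, both of differentiating epidermis, fell by 0.77 and 1.41 (limma adjusted p = 0.0036 and 0.0188). With the replicate block, the adjusted p was 0.0896 for Fos, 0.0861 for Lor and 0.0298 for Krt1 (limma). Il17b, a cytokine, is the remaining gene counted in that comparison and in the trend. It cleared the background on all arrays of E12, E13 and E14 but on only 1 of 2 E16 arrays and 0 of 2 E18 arrays, so that no size is given for it. Krt14, a basal keratin, fell by 2.28 at E14 against E12 (limma adjusted p = 0.0238). Krt1 also fell at E18 and E16 against E12, by 0.69 and 1.04, and was the gene past the test over 5 stages. Under the replicate block its adjusted p was 0.109 at E18, 0.0314 at E16 and 0.114 over 5 stages (limma). Pparg, a nuclear receptor of fat metabolism, rose over gestational day by 0.18 per day (limma adjusted p = 0.0214).

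How well the kidney label holds could be checked only in part. The array held 0 of 15 marker genes of nephron progenitors, early nephrons, podocytes and proximal tubule. Wnt11, made at the tips of the ureteric bud, and Notch4, an endothelial receptor, were above background on 12 of 12 arrays each. On each array 94 to 112 of the 118 genes were above background, so such calls say little about the tissue. In the late minus early comparison Notch4 differed by 0.10, the single gene on the array from a list of endothelial markers, so endothelial content could not be set beside Dll4 by more than 1 gene. Of 6 keratinocyte genes 0 rose and 2 fell (Krt1 and Lor), where 3.77% of all genes passed in either direction. The summed deposited intensity of the 6 genes was 29837 to 48790 on late arrays and 38450 to 61319 on early arrays. These sums were neither corrected for background nor normalized.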

How the data were processed

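The deposited file of each array gives 1 whole-number intensity per spot, with no background column. Per the labels' protocols, TRIzol RNA was amplified and labelled with biotin; the image software is not given in the sources used here. A deposited series table holds a ratio per spot: the recomputed ratio of signal minus the array's lowest spot to the same for Ppia (duplicate spots averaged) matched it within 5.0e-10 for every gene listed. Intensities were corrected with the normexp model (offset 50, all spots), log2-transformed, then quantile-normalized (120 gene spots) and averaged per gene. A gene was tested if above background (2 SD over the mean negative control) on every array of at least 1 stage, which left 106 of 118. Stage means were fitted with limma 3.58.1 in R 4.3.3 over all 12 arrays (7 residual and 1.72 prior degrees of freedom), and the trend on 5 stage means. The code was tested on simulated data.

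The alternatives were other background corrections and scalings, the deposited ratios on the log2 scale, no filter, another prior, the compared stages alone, a replicate block, arrays or stages left out, and a correction by spot position. Same-numbered arrays of E12 and E13 had deviations correlated at r = 0.12 to 0.22 (3 pairs). Over all 21 same-numbered pairs of arrays r ran from -0.38 to 0.37, and where both stages had 2 arrays the same r is counted again. No label states that the numbers pair arrays across stages, and arrays of different number were not compared. These r therefore do not establish a pairing. The main fit held no block, and the replicate block was applied to all arrays as an alternative only. The ligands and gene lists were chosen with earlier results of these data known. Named besides the ligands are the 3 genes most like each, up to 2 genes of smallest p per pathway list in late minus early, and every gene past the threshold. The values of 1 gene that this rule takes are not reported here.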

Additional observations from a re-analysis of the deposited data

How the results depend on the processing

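Across 30 settings, which gave 513 values for Dll1, Dll3 and Dll4, none passed the threshold (lowest limma adjusted p 0.124, Dll3 at E18 minus E12 after the correction by spot position), and 43 values changed sign. Differences between ligands within arrays are not counted among these values. The correction by spot position and the comparison of ligands within arrays were chosen after seeing the data. Small spot-to-background ratios (down to 1.43 for Dll4), 2 or 3 arrays per stage and technical replication limit all of them.

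Sign changes by setting were as follows, and the cause was not tested. With arrays scaled to equal medians, Dll1 at E13 was -0.0079, Dll3 and Dll4 at E16 were -0.040 and -0.10, Dll4 at E18 was -0.26 and its trend -0.00078 per day; Jag2, Rbpj and Hes1 in late minus early were -0.20, -0.23 and -0.28. Under it the median over all genes in late minus early stood at -0.28, against 0.03 with quantiles, 0.05 with housekeeping genes and 0.08 with none. With housekeeping scaling Dll3 was 0.016 at E14 and 0.012 in late minus early, and Neurl 0.28. Without normalization Dll3 was 0.082 at E13, 0.13 at E14 and 0.049 in late minus early, and Neurl 0.32. With the deposited ratios Dll1 at E13 was -0.012, and in late minus early Dll3 was 0.042 and Neurl 0.30. With the replicate number as a block, Dll3 and Dll4 at E14 were 0.070 and 0.14, and in late minus early Dll3 was 0.019 and Neurl 0.031; the block brought no ligand past the threshold and left 3 genes past it in late minus early, against 4. Without the 3 arrays of highest background, E16 minus E12 was -0.30 for Dll1, -0.49 for Dll3 and -0.42 for Dll4, E18 minus E12 was -0.031 for Dll4, late minus early was -0.27 for Dll1, -0.17 for Dll4 and 0.028 for Neurl, the trends of Dll1 and Dll4 were -0.027 and -0.016, and the late minus early change of Dll1 minus Dll4 was -0.043. With the correction by spot position, Dll3 at E16 was -0.018 and the change of Dll1 minus Dll4 was -0.0098. The trend of Dll3 was 0.045 without E18. Over stage means, r of Dll4 with Adam17 was -0.41.

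Leaving out each array in turn gave -0.20 to 0.51 for Dll1 and -0.62 to 0.053 for Dll4 at E13 minus E12, -0.35 to 0.16 for Dll3 and -0.65 to 0.31 for Dll4 at E14 minus E12, -0.32 to 1.70 for Dll1, -0.45 to 0.62 for Dll3 and -0.42 to 0.63 for Dll4 at E16 minus E12, and -0.085 to 0.49 for Dll4 at E18 minus E12. In late minus early it gave -0.032 to 0.98 for Dll1, -0.43 to 0.11 for Dll3, -0.013 to 0.38 for Notch2 and -0.049 to 0.27 for Rbpj, and it gave 0.015 for Neurl without the first E16 array. The late minus early change of Dll1 minus Dll3 ran from 0.43 to 0.88, and that of Dll1 minus Dll4 from -0.015 to 0.39.

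Counts of all genes past the threshold varied more; the count in brackets is the one reported above. E13 minus E12 (0) gave 1 without background correction or with a prior that follows the signal. E14 minus E12 (1) gave 0 with housekeeping scaling, no normalization, the compared stages alone or without the 3 arrays. E16 minus E12 (2) gave 4 without background correction or with that prior, 1 with equal medians or the block, and 0 with housekeeping scaling, no normalization, deposited ratios, the compared stages alone, without the 3 arrays or by spot position. E18 minus E12 (2) gave 7 by spot position, 4 with that prior, 1 with equal medians, and 0 with housekeeping scaling, no normalization, deposited ratios, no filter, the compared stages alone, the block or without the 3 arrays. Late minus early (4) gave 8 with that prior or by spot position, 2 with equal medians, 1 without normalization, and 0 with housekeeping scaling, deposited ratios or without the 3 arrays. The test over 5 stages (1) gave 6 with that prior, 3 by spot position, 2 with equal medians, and 0 with housekeeping scaling, no normalization, deposited ratios, the block or without the 3 arrays. The trend (2) gave 12 with that prior, 9 with arrays as units, 8 by spot position, and 0 without the 3 arrays or any 1 stage. With 1 array left out the counts ran from 0 to 1 at E14, 1 to 3 at E16, 0 to 7 at E18, 1 to 6 in late minus early, 0 to 3 over 5 stages and 0 to 3 in the trend. In late minus early, Krt1 passed in 18 of 24 settings, Lor in 16 and Fos in 6, each with its direction kept. Krt14 at E14 passed in 14 of 24, Krt1 in 16 at E16 and 5 at E18, and the trend of Pparg in 17 of 28.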

Other observations

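Because the deviations of the 3 ligands moved together, differences between ligands within an array were also compared between late and early arrays, which was decided with the values in view. These are differences of change and not of RNA level, since each gene has its own probe. Dll1 minus Dll3 was -0.99 and -1.96 on the E16 arrays and -0.60 and -1.42 on the E18 arrays. On the early arrays it was -2.24, -1.68 and -2.36 at E12 and -1.75, -1.75 and -1.50 at E13. The groups overlapped through the second E16 array. Dll1 minus Dll3 averaged -1.24 ± 0.58 (SD, n = 4) late and -1.88 ± 0.34 (SD, n = 6) early, a difference of 0.64 (exact permutation test over arrays, 2-sided, p = 0.0714, adjusted p = 0.214 over 3 pairs of ligands). Dll3 minus Dll4 averaged 1.73 ± 0.55 (SD, n = 4) late and 2.15 ± 0.40 (SD, n = 6) early, a difference of -0.42 (exact permutation p = 0.233, adjusted p = 0.35). Dll1 minus Dll4 averaged 0.48 ± 0.46 (SD, n = 4) late and 0.27 ± 0.67 (SD, n = 6) early, a difference of 0.22 (exact permutation p = 0.59, adjusted p = 0.59). No pair passed with all arrays. In 1 of the 12 runs with an array left out, that without the second E16 array, Dll1 minus Dll3 differed by 0.88. Its adjusted p was then 0.0357 (exact permutation test over arrays), and this was the only 1 of 20 settings in which it passed. The array left out there is the one through which the groups overlap, so little weight can be put on that p. Without the 3 arrays of highest background Dll1 minus Dll3 differed by 0.25 with an adjusted p of 0.786.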
